A study of Mus musculus with 21 samples.

Results

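The transcripts described here were those that reached a TPM of at least 5 in both 1-cell libraries while staying under 1 TPM in both oocyte and both sperm libraries. There were 13 of them among the 22612 transcripts that long reads had defined across mouse preimplantation development. TPM is a transcript's abundance from assigned reads, corrected for its length and scaled to a fixed total per library, so values can be compared between genes within a library, while between libraries they are relative to all other RNA and give no number of molecules. The 10 most abundant transcripts held from 4.39% to 28.8% of a library's TPM. Of the 7735 transcripts with at least 5 TPM in both 1-cell libraries, 5535 also had at least 5 TPM in both oocyte libraries, 43 were under 1 TPM in both oocyte libraries, and 22 were under 1 TPM in both oocyte libraries but at least 1 TPM in both sperm libraries. The sperm, oocyte and 1-cell values chose the 13 transcripts, so those values are given as a description, without a test.

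Embryos came from C57/BL6J females mated with DBA/2J males, as the sample titles name the strains, while the protocol of the same labels calls the males DBA/2N. The females were 3 to 5 weeks old and superovulated with gonadotropins, and no group carried a mutation or a treatment beyond this. The oocytes were C57/BL6J cells lysed 20 h after injection of human chorionic gonadotropin (hCG), and the sperm were epididymal DBA/2J cells. Embryos were cultured at 37 °C and 5% CO2 and lysed 24 to 26 h after hCG at the 1-cell stage, 46 to 48 h at the 2-cell stage, 54 to 58 h at the 4-cell stage, 68 to 70 h at the 8-cell stage and 94 to 96 h at the blastocyst stage. Each of the 7 stages had 2 short-read libraries of amplified cDNA from pooled cells and 1 long-read pool, so a spread between libraries is that between 2 pools and not between single embryos. In such pools a fall in TPM cannot be told apart from a rise of other transcripts or from a change in RNA per embryo.

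The egg carries stored maternal RNA, and the embryo's own genome is switched on in steps, with a weak first wave of transcription in the 1-cell embryo and a stronger one at the 2-cell stage. Maternal RNAs are cleared over the same period. The first wave is known to be widespread over the genome and to include regions between annotated genes. The cDNA was primed at poly(A) tails, and TPM does not separate newly made RNA from stored RNA with an altered tail, so a low oocyte value is not absence from the egg.

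Markers were checked for oocyte, sperm and blastocyst, and none were set for the stages between. All 15 oocyte markers were at 1 TPM or more in both oocyte libraries, all 15 sperm and spermatid markers in both sperm libraries, and all 12 blastocyst markers that had a transcript in both blastocyst libraries. This limit alone does not tell stages apart. In both 4-cell libraries all 15 oocyte markers also passed it, and in oocyte replicate 1 so did 8 of the 12 blastocyst markers. Oocyte markers summed to 18896 and 30041 TPM in the oocyte libraries, beside 285 and 314 TPM at 4-cell. Lists for cumulus and granulosa cells and for oviduct epithelium had a transcript for 4 of 15 and 5 of 10 markers and are not described further. The sperm libraries also held leukocyte RNA, with 8 and 9 of 10 leukocyte markers at 1 TPM or more, and erythroid RNA, with 5 and 6 of 6. In sperm replicates 1 and 2 the leukocyte markers summed to 81689 and 16562 TPM, mostly Cd74 (71096 and 14459 TPM). The erythroid markers summed to 2147 and 4854 TPM there, and the sperm and spermatid markers to 19778 and 22838 TPM. In 2-cell replicate 2 the 6 erythroid markers summed to 372 TPM, the leukocyte markers to 124 TPM, and 9 of 15 sperm markers were at 1 TPM or more. In 2-cell replicate 1 the erythroid and leukocyte sums were 22.0 and 22.8 TPM with 4 sperm markers, and at 4-cell the erythroid sums were 96.1 and 145 TPM, nearly all of it Hba-a1. Oocyte markers summed to 2289 TPM in 2-cell replicate 2 and to 240 TPM in 2-cell replicate 1, and the log2 values of the 2 libraries correlated with r = 0.721 over all transcripts, the lowest of the 7 stages. The part of these differences in the values below was not tested.

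The 13 transcripts fell into 4 classes against GENCODE vM21, the mouse annotation used for names. Of these, 5 transcripts lay between annotated genes, 4 lay inside an intron without touching an exon, 3 were new isoforms of annotated genes (Nr2e1, Dnajc7 and Nrf1), and 1 had the same introns as an annotated transcript (Duxbl1). The first 2 classes, 9 of 13 (69.2%, Wilson 95% interval 42.4 to 87.3%) were outside annotated exons. Over all 22612 transcripts the share was 17.4%, and over the 5535 with at least 5 TPM in both oocyte and both 1-cell libraries 6.97%. Of the 22 shared with sperm 0 were of this kind, which allows a share of up to 14.9% by the same interval. All intervals of shares cover counting error only and take the transcripts as independent. That was not tested, and 4 of the members had near-equal genomic spans, described below, so the intervals may be too narrow. The 13 transcripts had a median of 2 exons and a median length of 1229 bases, beside 4 exons and 1247 bases over all transcripts, and 9 of 13 had at most 2 exons beside 33.8% of all. The share outside annotated exons depended on the rule. It was 31.1% of 45 transcripts without 1-cell replicate 2, 44.8% of 29 without oocyte replicate 2, 40.0% of 60 at a limit of 2 TPM and 5 of 5 at a limit of 10 TPM.

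Sequences are shown for the members that overlap annotated exons, because these are where the structures meet known genes. Duxbl1 (ENSMUSG00000048502.14, protein-coding, chr14:25983404-25990146, + strand, mm10) encodes a protein with double homeodomains of the same family as the genome activator Dux. All 4 introns of its transcript TCONS_00006091 were annotated. The following runs show 20 coding bases on each side of the 4 exon junctions, read from the GENCODE vM21 transcript, with the 2 bases on either side of the junction in capitals.
Duxbl1 junction 1 (chr14:25983526-25984165): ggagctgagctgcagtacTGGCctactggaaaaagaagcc
Duxbl1 junction 2 (chr14:25984281-25986784): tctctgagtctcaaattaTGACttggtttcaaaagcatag
Duxbl1 junction 3 (chr14:25986839-25987487): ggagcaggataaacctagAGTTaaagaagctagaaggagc
Duxbl1 junction 4 (chr14:25987594-25988778): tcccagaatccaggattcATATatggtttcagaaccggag

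The annotation holds 2 further copies, Duxbl2 and Duxbl3, on the same chromosome. Their annotated coding sequences of 1053 bases differed from that of Duxbl1 at 0 bases, and all 4 runs above occur in both. Short reads over the coding exons can therefore not be assigned to one copy, and the TPM of Duxbl1 is uncertain against that of Duxbl2. One transcript of Duxbl2 was defined by long reads (TCONS_00006093, a new isoform of 5 exons) and none of Duxbl3.

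Dnajc7 (ENSMUSG00000014195.15, protein-coding) encodes a co-chaperone that works with Hsp70 and Hsp90. Its transcript TCONS_00003947 (chr11:100582810-100619627, − strand) had 13 exons and 1400 bases, and 11 of its 12 introns were annotated. The remaining intron, chr11:100582942-100584349, left exon 12 after 14 bases and led to a last exon of 132 bases, of which 124 lie in annotated Dnajc7 exons. The run below gives 20 bases of exon 11, the 14-base exon 12 in capitals and the first 20 bases of exon 13, from the GENCODE vM21 transcript.
Dnajc7 exons 11 to 13 of TCONS_00003947 (chr11:100582922-100584571, − strand): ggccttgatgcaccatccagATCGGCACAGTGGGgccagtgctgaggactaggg

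Nrf1 (ENSMUSG00000058440.14, protein-coding) encodes nuclear respiratory factor 1, a transcription factor for genes of the mitochondria and of cell growth. Its transcript TCONS_00016624 (chr6:30048028-30140860, + strand) had 12 exons and 2244 bases. All 11 introns were annotated, but no annotated transcript holds them together. The transcripts of Nrf1 and Dnajc7 were the 2 of 13 (15.4%) that began within 300 bases of an annotated start, beside 59.4% of all transcripts, and both began inside a promoter window of RefSeq (GRCm38.p6, 250 bases before to 50 after a gene's start). The windows are shown with the part from the transcript's first base onward in capitals.
Nrf1 promoter (chr6:30047738-30048037, + strand): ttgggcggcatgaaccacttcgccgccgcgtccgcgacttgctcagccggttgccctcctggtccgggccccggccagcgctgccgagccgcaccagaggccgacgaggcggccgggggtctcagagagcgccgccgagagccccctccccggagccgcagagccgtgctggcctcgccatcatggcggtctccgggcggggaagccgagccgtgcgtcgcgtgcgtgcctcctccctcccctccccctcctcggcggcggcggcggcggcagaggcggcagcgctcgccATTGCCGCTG
Dnajc7 promoter (chr11:100619578-100619877, − strand): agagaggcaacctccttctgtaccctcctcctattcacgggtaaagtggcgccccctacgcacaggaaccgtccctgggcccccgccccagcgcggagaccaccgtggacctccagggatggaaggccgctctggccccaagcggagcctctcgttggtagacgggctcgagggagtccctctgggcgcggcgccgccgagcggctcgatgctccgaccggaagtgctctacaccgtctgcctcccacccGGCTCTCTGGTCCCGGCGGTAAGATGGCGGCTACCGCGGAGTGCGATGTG

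The capitals mark 10 bases for Nrf1 and 50 bases for Dnajc7. The windows held 43 and 30 CG dinucleotides, beside a median of 7 over 32851 windows. Fewer CG dinucleotides than in the Nrf1 window were present in 97.4% of all windows, and fewer than in the Dnajc7 window in 88.3%.

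The members between genes were TCONS_00005655, TCONS_00013447, TCONS_00020346, TCONS_00005152 and TCONS_00019679. All 5 had 2 exons, and 0 of their 5 introns were annotated. TCONS_00005655 (chr13:44712670-44714315, − strand) gave 24.9 and 27.6 TPM in the 1-cell libraries, the most of the 13 on average, and 0.775 and 0 TPM in the oocyte libraries. It lay 15159 bases from Jarid2, a gene of Polycomb repressive complex 2 on the opposite strand. Its level was 38.0 and 61.4 TPM at the 2-cell stage, 10.4 and 16.8 TPM at the 4-cell stage, 0.140 and 0.106 TPM at the 8-cell stage and 0 TPM in both blastocyst libraries. The 2-cell libraries were both above the 1-cell libraries, and the 8-cell and blastocyst libraries were all under 1 TPM.

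TCONS_00020346 (chr8:95581921-95583549, − strand) followed the same course. Its 1-cell values were 13.1 and 30.002 TPM, its 2-cell values 65.1 and 49.6 TPM, and its 4-cell values 3.41 and 2.62 TPM. TCONS_00005152 (chr13:15274871-15276510, + strand) stood at 10.9 and 17.5 TPM at 1-cell, 20.6 and 21.0 TPM at 2-cell, and 0.0543 and 4.32 TPM at 4-cell, where the 2 libraries disagreed. Both were under 1 TPM at every later stage.

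The remaining members between genes were low. TCONS_00013447 (chr3:103555073-103556705, − strand), 18526 bases from Syt6, gave 6.198 and 5.12 TPM at 1-cell, 5.94 and 7.93 TPM at 2-cell and 1.63 and 2.07 TPM at 4-cell. TCONS_00019679 (chr8:80161033-80177908, + strand, 505 bases long) gave 6.21 and 7.84 TPM at 1-cell, 0 and 2.09 TPM at 2-cell and 0 TPM in every later library. The first kept its 1-cell level at the 2-cell stage and the second was below it in both libraries.

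Inside introns lay TCONS_00001907, TCONS_00005013, TCONS_00020954 and TCONS_00002409. TCONS_00001907 (chr10:121566524-121567938, + strand, 1 exon) lay opposite to Tbk1, a kinase of innate immune signalling, and gave 18.6 and 15.1 TPM at 1-cell, 22.4 and 22.2 TPM at 2-cell and 1.94 and 4.34 TPM at 4-cell. TCONS_00005013 (chr12:102316892-102317421, − strand, 1 exon) lay opposite to Rin3, which acts on Rab5 in endocytosis, and gave 8.83 and 8.98 TPM at 1-cell and 1.96 and 4.33 TPM at 2-cell. TCONS_00020954 (chr9:102565261-102565458, + strand, 1 exon of 198 bases) lay in an intron of the lincRNA Gm29387 on the same strand, with 13.97 and 12.2 TPM at 1-cell and 11.3 and 6.94 TPM at 2-cell. TCONS_00002409 (chr10:119161993-119165219, − strand, 2 exons) lay in an intron of the lincRNA Gm34045 on the same strand, with 5.69 and 5.69 TPM at 1-cell and 0 and 2.79 TPM at 2-cell. All 4 were under 1 TPM in both 8-cell and both blastocyst libraries. The merged list held 0 transcripts of any of these 4 host genes. The short-read libraries are unstranded, so reads of host-gene RNA over these positions cannot be told apart from reads of these members. Their part in the TPM was not tested.

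The members in annotated genes went on longer, with Nr2e1 as the exception. Nr2e1 (ENSMUSG00000019803.11) encodes an orphan nuclear receptor of neural stem cells. Its transcript TCONS_00002112 (chr10:42563245-42567746, − strand, 3 exons, 450 bases) began with a first exon of 62 bases that the annotation lacks, followed by 2 exons that lie wholly in annotated Nr2e1 exons. It gave 20.2 and 6.72 TPM at 1-cell, 6.04 and 6.66 TPM at 2-cell and 0 TPM in both 4-cell libraries. Duxbl1 gave 12.4 and 6.58 TPM at 1-cell, 7.42 and 36.7 TPM at 2-cell and 27.8 and 22.9 TPM at 4-cell, then 15.5 and 14.2 TPM (8-cell) and 2.05 and 0.415 TPM (blastocyst). The 2-cell libraries disagreed, and the 4-cell and 8-cell libraries were all above both 1-cell libraries. Duxbl2 stood at 0 TPM in both 1-cell libraries and at 10.4 and 16.8 TPM at 2-cell. Because the copies share their reads, their sum does not depend on how reads were divided between them. It was 12.4 and 6.58 TPM at 1-cell, 17.8 and 53.5 TPM at 2-cell, 34.4 and 39.6 TPM at 4-cell and 16.1 and 14.5 TPM at 8-cell. In the oocyte and sperm libraries this sum was at most 0.463 TPM.

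The Nrf1 isoform stayed above 2 TPM in every embryo library, with 9.97 and 6.36 TPM at 1-cell, 3.63 and 7.75 TPM at 2-cell and 17.0 and 9.46 TPM at 4-cell. Its 8-cell values were 4.28 and 9.34 TPM and its blastocyst values 5.00 and 2.37 TPM. The Dnajc7 isoform was discontinuous. It gave 15.5 and 5.09 TPM at 1-cell, 0 TPM in both 2-cell libraries and 2.80 and 0 TPM at 4-cell. Against the merged list its 8-cell values were 7.82 and 4.58 TPM, with 8.39 and 4.98 TPM for the blastocyst. Against the transcripts of the 8-cell stage alone, the matching structure that overlapped it most gave 0.260 and 0.222 TPM. Its return at 8-cell therefore depended on the list.

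**Figure D1:**
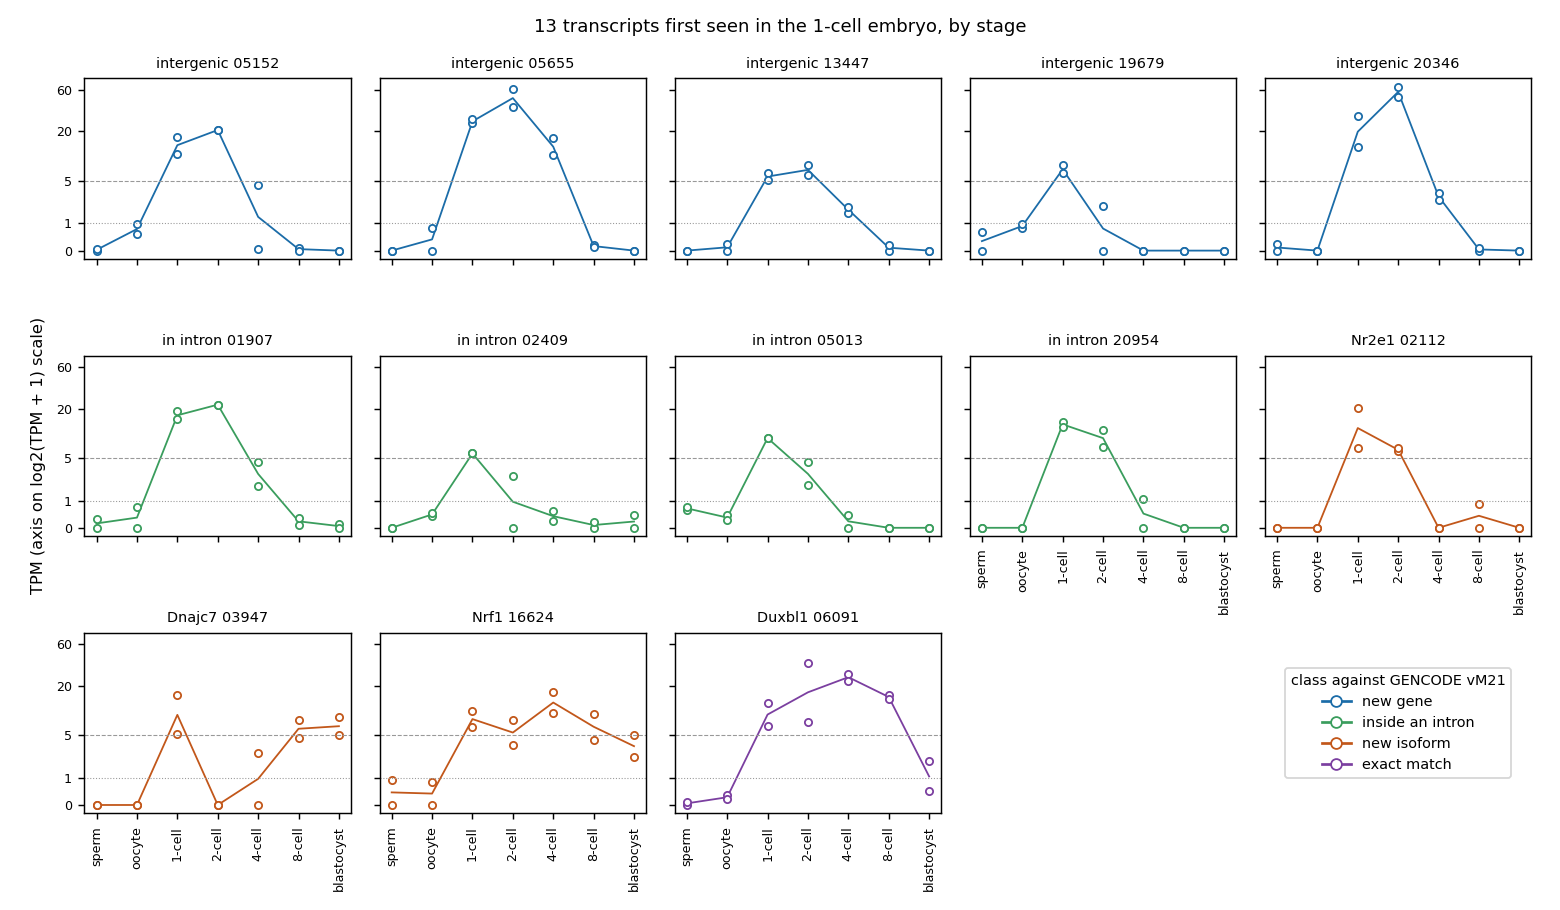
TPM of each of the 13 transcripts on a log2(TPM + 1) axis (y) in the 2 libraries of each stage (x), with circles for libraries, lines through the stage means and colours for the class against GENCODE vM21; dashed and dotted lines mark 5 and 1 TPM. The 9 transcripts between genes or in introns and Nr2e1 are under 1 TPM in both 8-cell libraries, whereas Nrf1, Dnajc7 and Duxbl1 are above it.

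Counted by stage, the rule put 13 of 13 at 1 TPM or more in both 1-cell libraries. The same held for 10 in the 2-cell, 6 in the 4-cell, 3 in the 8-cell and 2 in the blastocyst libraries. At the 8-cell stage 10 of 13 (76.9%) were under 1 TPM in both libraries. The share was 19.0% over all 7735 transcripts with at least 5 TPM at 1-cell, 16.6% over the 5535 also at that level in the oocyte and 4.55% of the 22 shared with sperm. The median of the members' mean TPM was 10.3 at 1-cell and 6.94 at 2-cell.

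Changes after the 2-cell stage were tested, because the rule used no library of these stages. The test was limma on log2(TPM + 1) across all 20250 transcripts that passed the filter, with a Benjamini-Hochberg adjusted p under 0.05 as the call. All 13 members passed that filter through the 1-cell libraries that chose them. The spread was estimated over oocyte and 1-cell libraries as well, in which the rule bounds the members' values, so each count is also given for a fit and filter on the 8 libraries from 2-cell to blastocyst, added after seeing the data, which all members but TCONS_00002409 and TCONS_00019679 passed. From 2-cell to blastocyst 9 of 13 fell and 1 rose, beside 19.2% of all tested transcripts called lower and 8.14% called higher. In the fit on 8 libraries the counts were again 9 and 1, beside 17.7% lower and 7.57% higher. They were 1 and 0 in a fit on the 4 libraries of the comparison alone, beside 1.57% lower and 0.217% higher, and 4 and 0 with the spread weighted by stage, beside 4.99% and 1.60%. The median change of the members was −2.98 on this scale, and that of all tested transcripts was −0.72. Under quantile normalization the median over all transcripts became 0.02, and 13.2% of all were called lower and 16.6% higher, with 9 members lower and 1 higher.

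The falls from 2-cell to blastocyst took in the members with the highest levels. TCONS_00020346 fell by 5.85 (SE 0.60, limma adjusted p = 4.6e-05) and TCONS_00005655 fell by 5.62 (SE 0.62, limma adjusted p = 8.29e-05), and in both every 2-cell library was above every blastocyst library. TCONS_00001907 fell by 4.48 and TCONS_00005152 fell by 4.45. Smaller falls passed for TCONS_00020954 (−3.31), Duxbl1 (−3.10), TCONS_00013447 (−2.98), Nr2e1 (−2.88) and TCONS_00005013 (−1.99), with adjusted p up to 0.0125. The Dnajc7 isoform rose by 2.91 (SE 0.72, limma adjusted p = 0.0118), from 0 TPM in both 2-cell libraries. The call of the Dnajc7 isoform was lost without blastocyst replicate 1, and that of Duxbl1 without 2-cell replicate 2 (−2.02) or without blastocyst replicate 2 (−2.55). Nrf1 (−0.50), TCONS_00002409 (−0.73) and TCONS_00019679 (−0.81) were not called, and the last 2 of these were already at 0 TPM in 2-cell replicate 1.

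From 2-cell to 4-cell 5 members fell and 0 rose, beside 1.17% of all tested transcripts called lower and 1.46% called higher. The 5 were TCONS_00020346 (−3.86, SE 0.60, limma adjusted p = 0.0171), TCONS_00005152 (−3.20), Nr2e1 (−2.88), TCONS_00020954 (−2.78) and TCONS_00001907 (−2.55). At an unadjusted p under 0.05 there were 8, but the share over all transcripts at that limit is not given here, so nothing is read from the 8. The count of 5 called falls did not hold in other fits. It was 0 in the fit on 8 libraries, where 0 of all transcripts were called, 0 in the 4-library fit, which also called 0 of all, 0 with weighted spread, 0 without either 4-cell library and 10 without 2-cell replicate 1. The share over all in that last fit is not given here. From 4-cell to 8-cell 1 member fell, TCONS_00005655 (−3.66, SE 0.62, limma adjusted p = 0.00764), beside 2.44% called lower and 0.681% called higher. The count was also 1 in the fit on 8 libraries, beside 1.71% lower and 0.229% higher. Without either 4-cell library or either 8-cell library the count was 0. From 8-cell to blastocyst 0 members were called by limma, beside 1.28% lower and 0.83% higher. An unadjusted p under 0.05 was reached by 1 member, again without a share over all at that limit. In the fit on 8 libraries 0 members were called from 8-cell to blastocyst, beside 0.0104% lower and 0.0104% higher. Quantile normalization gave 2.30% lower and 2.07% higher over all transcripts from 4-cell to 8-cell, and 1.71% lower and 2.02% higher from 8-cell to blastocyst. The member with the unadjusted p was Duxbl1, which stood at 15.5 and 14.2 TPM at 8-cell and 2.05 and 0.415 TPM at blastocyst (−2.93, SE 0.78, limma adjusted p = 0.0832).

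From 1-cell to 2-cell the rule had used 1 side of the comparison. There 0 members were called higher and 3 lower (Dnajc7, TCONS_00019679 and TCONS_00002409), beside 22.9% of tested transcripts called higher and 5.11% called lower (12.9% and 15.0% under quantile normalization), and nothing is read from these counts.

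**Figure D2:**
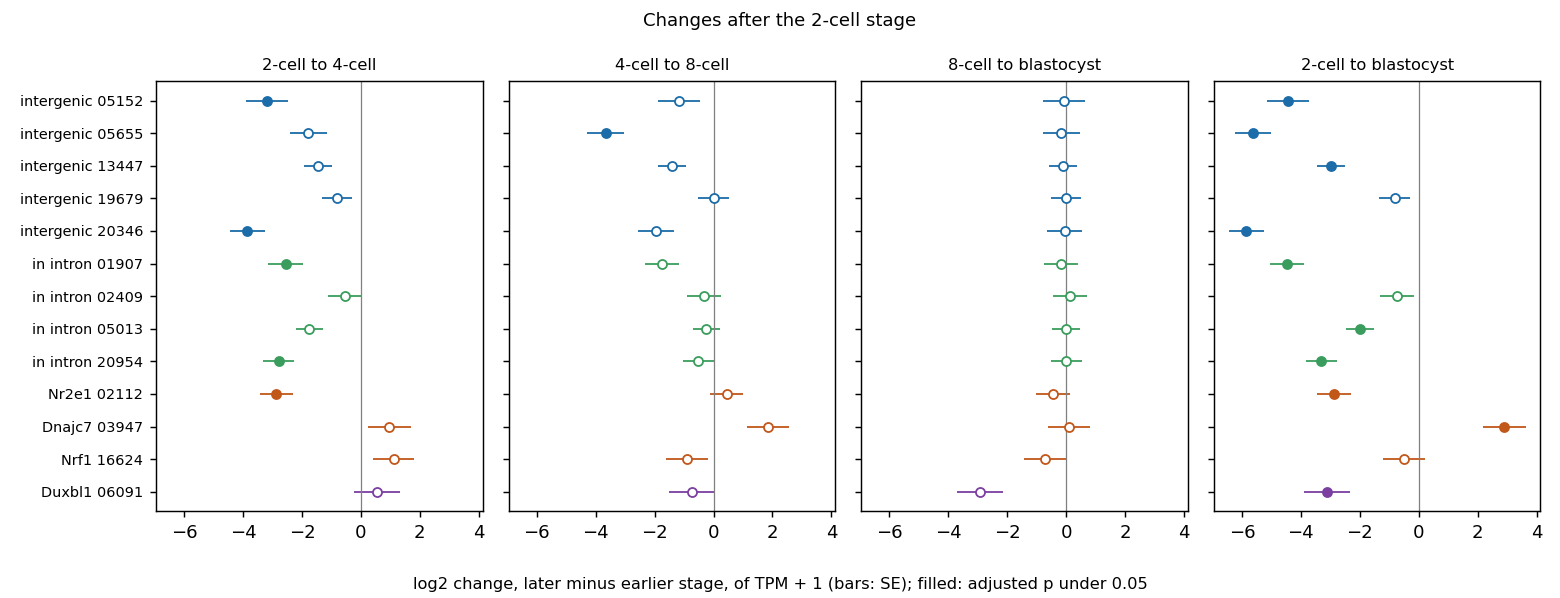
Change of each transcript (y) on the log2(TPM + 1) scale (x, later minus earlier stage) in the 4 tested comparisons, with bars of 1 standard error; filled circles passed an adjusted p under 0.05. From 2-cell to blastocyst 9 filled circles lie left of 0 and 1, that of Dnajc7, lies right of it.

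For the new isoforms and several members between genes, the transcript was listed first in the 1-cell embryo but its gene or locus was not. In 6 of 13 the other transcripts of the gene or locus summed to at least 1 TPM in both oocyte libraries, and in 5 of 13 to at least 5 TPM. In sperm this held for 2 of 13, Dnajc7 and Nrf1, at either level. In 5 of 13 the merged annotation held no other transcript, and these were Duxbl1 and the 4 in introns.

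The largest difference between a transcript and its locus was at chr13:44712670-44714315. There the unspliced transcript TCONS_00005654 covered the same 1646 bases as TCONS_00005655 in 1 exon. It gave 162 and 32.3 TPM in the oocyte libraries, 2202 and 2646 TPM at 1-cell, 3616 and 3629 TPM at 2-cell, 753 and 966 TPM at 4-cell and 8.81 and 13.7 TPM at 8-cell. The spliced member made up 1.12% and 1.03% of the locus at 1-cell and 1.04% and 1.66% at 2-cell. In the oocyte its share was 0.476% and 0%. At 4-cell the share was 1.36% and 1.71%. It therefore ranged from 1.03% to 1.71% over the 6 libraries in which the member was above 1 TPM.

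At chr3:103555073-103556705 the arrangement was the same. The unspliced TCONS_00013448 gave 17.3 and 6.597 TPM in the oocyte libraries, 227 and 352 TPM at 1-cell and 349 and 590 TPM at 2-cell, and the spliced TCONS_00013447 was 2.66% and 1.43% of the locus at 1-cell. At chr8:95581921-95583549 there were 3 other spliced forms with the same ends, TCONS_00020344, TCONS_00020345 and TCONS_00020347, which summed to 2.83 and 1.02 TPM in the oocyte libraries and 31.3 and 44.9 TPM at 1-cell. TCONS_00020346 was 29.5% and 40.1% of that locus at 1-cell. TCONS_00020344 gave 4.65 and 5.71 TPM at 1-cell and so fell outside the rule by its first library.

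Nr2e1 was present in the oocyte through its other forms, at 33.7 and 8.18 TPM, and these reached 78.0 and 32.9 TPM at 1-cell and 5.22 and 8.50 TPM at 2-cell. The short 3-exon member was 20.6% and 17.0% of Nr2e1 at 1-cell and 53.7% and 43.9% at 2-cell. The other transcripts of Dnajc7 gave 5.72 and 5.42 TPM in the oocyte libraries, 68.4 and 45.1 TPM at 1-cell and 64.9 and 60.2 TPM at 2-cell, so that the gene as a whole continued where the member was at 0 TPM. In sperm they gave 48.5 and 83.7 TPM. The 8 other transcripts of Nrf1 gave 16.2 and 28.6 TPM in the oocyte libraries, 32.7 and 20.9 TPM at 1-cell and 191 and 171 TPM at 4-cell. The Nrf1 form nearest to the member, TCONS_00016622, shared 10 of 11 introns, the last exon and a start 10 bases upstream, and differed by a shift of 3 bases at the start of exon 3. It gave 4.43 and 14.9 TPM in the oocyte libraries, where the member was at 0 and 0.792 TPM. The share of reads that can tell these forms apart was not tested.

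**Figure D3:**
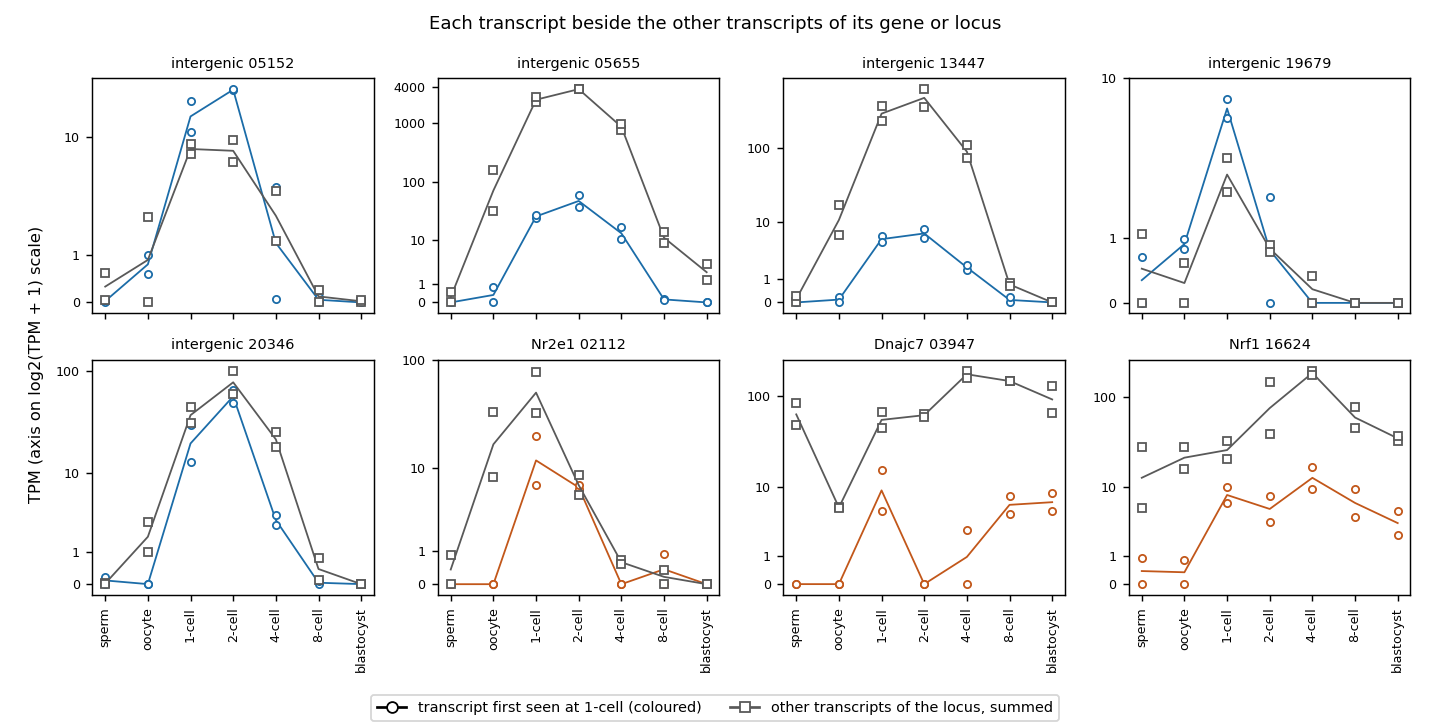
The 8 transcripts with other forms at their gene or locus: TPM on a log2(TPM + 1) axis (y) by stage (x), with coloured circles for the transcript itself, grey squares for the summed other forms, 1 symbol per library and lines through stage means. The other forms of TCONS_00005655 run from 32.3 and 162 TPM in the oocyte to 3616 and 3629 TPM at 2-cell, far above the coloured circles at every embryo stage up to the 4-cell stage.

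The long-read pools show in which stages each structure was sequenced. Each pool was mixed from the amplified cDNA of both batches of its stage, of which another portion gave the short-read libraries, so the 1-cell pool is no independent sample beside the 1-cell libraries that chose the members. A structure was counted as found where the stage's pool held the same introns, or introns that contained or were contained in its own, and for single exons an exon that overlapped by 80% in both directions or lay wholly within the other. In the 1-cell pool 8 of 13 were found (61.5%, Wilson 95% interval 35.5 to 82.3%), beside 26.7% of all 22612 transcripts. Unlike the members, these 22612 were not chosen for 1-cell TPM. The share over the 7735 transcripts with at least 5 TPM in both 1-cell libraries is not given here, so nothing is read from this difference. In the oocyte pool 2 were found and in the sperm pool 1, beside 25.0% and 33.3% of all. Each pool from 2-cell to 8-cell held 4 and the blastocyst pool 0, beside 29.5% to 30.8% of all in these 4 pools. Each stage has 1 pool, so these shares have no replicate.

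The 8 found at 1-cell were TCONS_00005655, TCONS_00013447, TCONS_00019679, TCONS_00002409, TCONS_00005013, TCONS_00020954, Nr2e1 and Nrf1. The other 5 had TPM at 1-cell without a 1-cell long read of that structure. Duxbl1 was found in 3 pools, those from 2-cell to 8-cell, TCONS_00001907 in the 8-cell pool, although its TPM in the 8-cell libraries was 0.0820 and 0.287, and TCONS_00005152 and TCONS_00020346 in the 4-cell pool. Dnajc7 was found at 8-cell, and its matches in the oocyte and sperm pools had only a part of its introns in common. TCONS_00013447 was found in the oocyte pool with its full intron although its oocyte TPM was 0.184 and 0. By any exon overlap on the same strand, 5 of 13 had a structure in the oocyte pool.

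**Figure D4:**
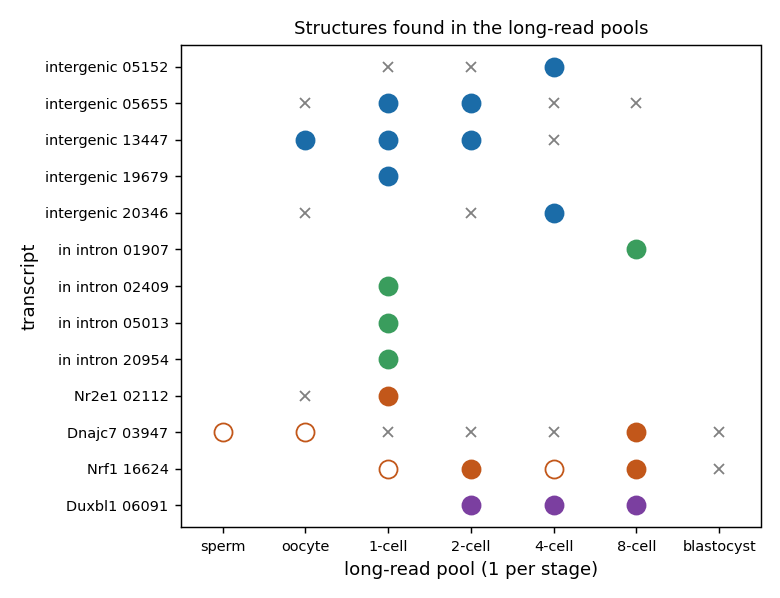
Long-read pools (x, 1 per stage) in which each transcript (y) was found; filled circles mark the same introns or the same single exon, open circles a structure contained in or containing it, and crosses another structure that overlaps it. The 1-cell column holds 8 circles, the oocyte column 2 and the blastocyst column 0.

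The authors also quantified each library against the transcripts of its own stage alone, and some members moved under that list. Nr2e1's TCONS_00002112 was 20.2 and 6.72 TPM at 1-cell against the merged list and 0 TPM in both libraries against the 1-cell list, where all 4 Nr2e1 structures summed to 60.5 and 25.4 TPM. TCONS_00013447 was 6.198 and 5.12 TPM against the merged list and 477 and 399 TPM against the 1-cell list. TCONS_00005655 was 24.9 and 27.6 TPM against 42.3 and 43.2 TPM, Nrf1 9.97 and 6.36 TPM against 40.9 and 23.9 TPM, and TCONS_00005013 8.83 and 8.98 TPM against 13.2 and 10.9 TPM. TCONS_00002409, at 3.77 and 3.67 TPM, and TCONS_00019679, at 4.80 and 6.11 TPM, were under the limit of 5 TPM in at least 1 library against the 1-cell list, whereas TCONS_00020954 was above it at 12.3 and 15.1 TPM. TCONS_00013447 was at 1.42 and 0 TPM against the oocyte list, which is over the gamete limit in replicate 1. In the oocyte, the 1 structure of the oocyte list that overlaps TCONS_00020346 took 530 and 126 TPM, while that whole locus had 2.83 and 1.02 TPM on the merged list. The 2 oocyte structures at the locus of TCONS_00005655 took 2031 and 319 TPM. The level of a member thus depended on which other transcripts were in the list, and the rule was applied to the merged list only. TCONS_00001907 gave 4.91 and 4.10 TPM against the 8-cell list and 0.0820 and 0.287 TPM against the merged list in the same libraries. The Dnajc7 isoform went the other way, with 7.82 and 4.58 TPM at 8-cell against the merged list. Its closest match gave 0.260 and 0.222 TPM against the 8-cell list. TCONS_00020346 was 3.41 and 2.62 TPM at 4-cell against the merged list and 0.549 and 0.686 TPM against the 4-cell list.

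A set of 4 members shared a feature that the rule did not use. TCONS_00005152, TCONS_00005655, TCONS_00013447 and TCONS_00020346 spanned 1640, 1646, 1633 and 1629 genomic bases, on 3 chromosomes. The first exon of TCONS_00005655 and that of TCONS_00013447 were 393 and 386 bases long and the second exons 836 and 830 bases, with an intron of 417 bases in both. This likeness was seen after the values and has no test. An intron of exactly 417 bases was the most frequent among the 2155 merged transcripts of 2 exons, with 13 transcripts, followed by 96 and 418 bases with 7 each. Of the 13, 10 had a first exon of 384 to 393 and a second exon of 829 to 871 bases, 12 had at least 5 TPM in both 1-cell libraries, and 10 of these 12 had at least 1 TPM in an oocyte library. All 13 were under 5 TPM in the 8-cell and blastocyst libraries.

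Transcripts of the same span were frequent outside annotated exons. Among the 3652 merged transcripts of at most 2 exons that lie outside annotated exons of their strand, 157 at 138 loci spanned 1600 to 1660 bases, beside 50 at 1540 to 1599 and 55 at 1661 to 1720 bases. Of the 157, 4 were members, 34 had at least 5 TPM in both oocyte libraries, and 96 (61.1%) had at least 5 TPM in both 1-cell libraries and under 1 TPM in both blastocyst libraries, beside 11.2% of the 3652. Their summed level was 0.338% and 0.0610% of all TPM in the oocyte libraries, 3.19% and 3.84% at 1-cell, 4.38% and 5.83% at 2-cell, 1.02% and 1.29% at 4-cell and 0.0450% and 0.0378% at 8-cell. Both 1-cell sums were above both oocyte sums, which themselves differed widely. Whether these transcripts are copies of one sequence, and how reads were divided among them, was not tested.

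**Figure D5:**
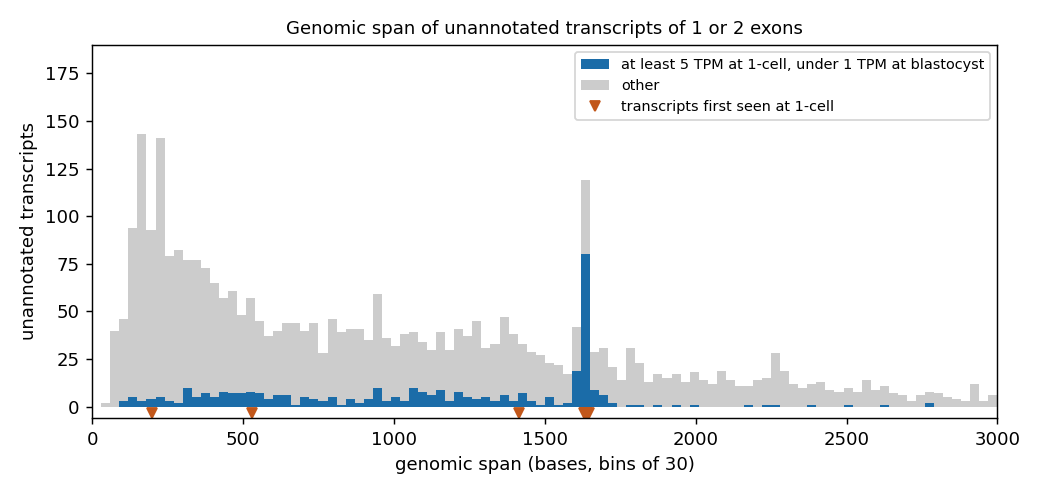
Number of merged transcripts of 1 or 2 exons outside annotated exons of their strand (y) by genomic span in bins of 30 bases (x), with those at 5 TPM or more at 1-cell and under 1 TPM at blastocyst in blue, and triangles at the spans of the members. A narrow peak lies between 1600 and 1660 bases, where 96 of 157 transcripts are blue and 4 members lie.

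Values just inside and just outside the limits of the rule lay close together. The 3 members nearest to the limit of 5 TPM were Dnajc7 (15.5 and 5.09 TPM), TCONS_00013447 (6.198 and 5.12 TPM) and TCONS_00002409 (5.69 and 5.69 TPM). The nearest transcripts outside it were TCONS_00011024 (5.44 and 4.88 TPM), TCONS_00004587 (9.96 and 4.67 TPM) and TCONS_00020344 (4.65 and 5.71 TPM). At the limit of 1 TPM in the gametes the highest values inside were 0.988 TPM for TCONS_00005152, 0.983 TPM for TCONS_00019679 and 0.904 TPM for Nrf1. The nearest outside were 1.05 TPM for TCONS_00002204, 1.06 TPM for TCONS_00020303 and 1.08 TPM for TCONS_00007565. With a mean over the 1-cell libraries in place of both there were 36 members, and without oocyte replicate 1 there were 137.

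None of the 13 overlapped a gene of 3 lists set for comparison. The first list held 40 genes known from the 2-cell stage and genome activation, such as the Zscan4 genes and Zfp352. From 2-cell to blastocyst 26 of its 59 tested transcripts were called lower and 2 higher, with a median change of −2.19, beside 19.2% of all tested transcripts called lower and 8.14% higher. From 1-cell to 2-cell 20 of the 59 were called higher and 9 lower, beside 22.9% and 5.11% of all. The second list held genes of the nucleolus and RNA polymerases, and from 2-cell to blastocyst 9 of 54 tested transcripts were called lower and 3 higher, which is near the shares over all transcripts, with a median of −0.26. The third held histones of the replication-dependent clusters, whose transcripts were called higher in 5 of 18 and lower in 0 of 18 over the same interval, with a median of 0.92. The median of the 13 members, −2.98, stood below those of all 3 lists and of all tested transcripts, −0.72, which is given as a description.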

How the data were processed

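The authors built long-read transcripts per stage with the Iso-seq3 pipeline, aligned them to mm10 with GMAP, merged the stages and deposited exon coordinates. The authors made TPM values with salmon from 150-base paired reads, over the merged list and over each stage's own list, and deposited them per library. TPM keeps no read count per transcript, so no count test was run. The paper lists the total reads of each short-read library. These totals differed widely between the libraries of some stages, including the stage in which the rule required the members to be present. The totals were not used here, and the effect of read depth on low TPM values and on the choice of members was not tested. The libraries are unstranded, so strand comes from the long-read structures.

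Groups and replicate numbers follow the sample titles; the 8-cell numbers are opposite elsewhere in the labels. The members, gene lists and look-alike spans were chosen with earlier results of these data known. All 13 members are named, with the 3 members and 3 other transcripts nearest to each limit. Genes were named, and classes set, by same-strand exon overlap with GENCODE vM21 (a new isoform shares an intron). Intervals are Wilson 95%. limma 3.58.1 (R 4.3.3; lmFit, contrasts.fit, eBayes with trend) was run on log2(TPM + 1) over 12 libraries from oocyte to blastocyst, with stage as the only term, on transcripts reaching 1 TPM in 2 or more libraries. Fold changes on this scale understate changes of low transcripts. The p-values rest on the spread between the 2 libraries within a stage, which are 2 batches of pooled cells. This spread was pooled over all stages of the fit and drawn toward a trend over all transcripts. Stages differed in it, with a median SD of the log2 values of 1.08 at 2-cell and 0.240 at 4-cell. The fit was tested on simulated data with 200 transcripts changed by 2 or 4 on the log2 scale. Each spread was drawn from a random transcript of the stage, whatever its level. At a change of 4 the share of false calls was above the nominal 5% in every tested comparison but 4-cell to 8-cell. From 2-cell to blastocyst there were 163 false calls beside 150 recovered, and from 2-cell to 4-cell 76 beside 126. Adjusted p-values in the comparisons above 5% are therefore too small. A change of 2 was recovered in 7 of 200 from 2-cell to blastocyst and in 0 of 200 from 8-cell to blastocyst. A count of 0 called thus does not show absence of change. Alternatives were another pseudocount, filter, scaling and spread, a replicate block, other limits of the rule, other matches, each library left out and, added after seeing the data, a fit on the 8 libraries from 2-cell to blastocyst. Python 3.11.15, pandas 2.3.3 and scipy 1.17.1 were used. Sequences at intergenic members, splice motifs and genomic A runs were not analysed here.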

Additional observations from a re-analysis of the deposited data

How the results depend on the processing

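For the 16 called changes of single members after the 2-cell stage, 258 values came from settings that leave the estimate as it is and can only alter its error, and 78 from settings that change it. None of the 78 changed sign, and 75 of all these values lost the call. The 9 falls from 2-cell to blastocyst were 8 to 11 with 1 library left out, 9 with the replicate block, 9 in the fit on 8 libraries, 1 in a fit on the 4 libraries alone and 4 with the spread weighted by stage, and the 1 rise (Dnajc7) was 0 in the last 2 fits and 0 to 1 with 1 library left out. The 5 falls from 2-cell to 4-cell were 1 with a pseudocount of 0.1, 0 in the 4-library fit, 0 with weighted spread, 0 in the fit on 8 libraries from 2-cell to blastocyst (added after seeing the data), 3 with the replicate block, 1 with the block and the 8-cell numbers exchanged, and 0 to 10 with 1 library left out. The 1 fall from 4-cell to 8-cell was 2 with a pseudocount of 0.1, 2 without a filter, 3 in the 4-library fit, 4 with weighted spread (beside 1 rise) and 0 to 4 with 1 library left out. Over all transcripts 14.4% were called lower in that 4-library fit, and 23.5% lower and 7.48% higher with weighted spread. Shares over all are not given here for the pseudocount, filter, block and left-out fits. From 8-cell to blastocyst 0 falls became 1 under quantile normalization, 1 with weighted spread (beside 2.41% of all called lower) and 0 to 1 with 1 library left out. The 3 falls from 1-cell to 2-cell were 5 under quantile normalization, 0 in the 4-library fit (which called 0 of all), 1 with weighted spread (beside 1.14% of all called lower) and 1 to 4 with 1 library left out. The cause of these differences between fits was not tested.

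The number of members was 5 at 10 TPM, 60 at 2 TPM, 36 by the 1-cell mean, 7 with gametes under 0.5 TPM, 41 by the gamete means, and 17 to 137 with 1 of the 6 libraries left out; the extreme was oocyte replicate 1, and 29 came without oocyte replicate 2, 24 and 45 without 1-cell replicate 1 or 2. By the same intron chain alone 0 members were found in the sperm pool and 1 in the oocyte pool. By any exon overlap 5 were found in the oocyte pool, 7 in the 2-cell pool, 7 in the 4-cell pool and 2 in the blastocyst pool.

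Same-numbered libraries did not deviate together in every pair of stages (r = −0.27, 0.28, −0.10, 0.41 and −0.49), so the numbers are no pairing. Crossed pairing, added after seeing the data, was counted without regard to direction. From 2-cell to blastocyst it called 9 members, beside 3638 of 20250 transcripts, where the 4-library fit without pairing called 1 member. From 4-cell to 8-cell it called 0 members, beside 0 of 20250. The count of genomic A runs after 3′ ends was not run. The 2 libraries per stage limit what can be called.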
